A study of Mus musculus with 12 samples.

Results

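The genes described here are 29 genes of cholesterol synthesis and its sterol control, of 11614 genes measured in mouse kidney cortex. They were chosen by symbol from a list of known pathway genes, and all 29 were found once each. RNA was sequenced in 12 libraries of C57BL/6J mice, 3 in each of 4 groups. The NASH groups were fed a Western diet and given CCl4 (carbon tetrachloride, which injures the liver) for 24 or 12 weeks. This treatment is used to bring about non-alcoholic steatohepatitis, in which the liver is fatty and inflamed. The control groups received a normal diet with corn oil for the same times. The labels give 10 NASH mice and 8 control mice at 24 weeks, and 6 of each at 12 weeks, with equal numbers of males and females. They do not say whether a library holds 1 mouse or a pool, what a replicate number stands for, or at which hour tissue was taken, so p-values measure only the spread between these libraries, which may be technical. Diet, CCl4 and liver disease cannot be told apart in the NASH groups, and age, length of treatment and any batch cannot be told apart between 24 and 12 weeks.

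Cells make cholesterol from acetyl-CoA. The mevalonate steps lead to isoprenoids, isoprenoids are joined to squalene, and squalene is closed to lanosterol and trimmed to cholesterol. The pathway is set largely by SREBP-2, encoded by Srebf2, a transcription factor held in the endoplasmic reticulum with its escort Scap. When membrane sterol is low, Scap carries SREBP-2 to the Golgi, where proteases release the part that enters the nucleus. When sterol is high, the Insig proteins keep Scap in place, and oxysterols activate LXR nuclear receptors, which favour sterol export and, through Mylip, less uptake. In kidney tubule cells cholesterol is largely a component of membranes.

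The values are deposited log2 values. A change is the difference of group means on that scale with its standard error (SE), and a call is an adjusted p under 0.05 from limma, adjusted over all 11614 genes. In bulk tissue, fewer cells of a type and less RNA per cell cannot be told apart. Estimated depth was 7174542 to 14053050 reads a library. It was lowest in replicates 2 and 3 of NASH at 12 weeks, at 7174542 and 8231166. The same replicates of control at 12 weeks had 13737967 and 13057026, and those of NASH at 24 weeks 11291924 and 8280620. The part of depth in the changes was not tested. As to the tissue, 10 of 10 proximal tubule markers were measured, with a summed level of 250727 to 329833 scaled reads, against 4397 to 14255 for 5 podocyte markers. Replicate 1 stood apart from replicates 2 and 3 in every group. Its 4 libraries had Xist at log2 10.6 to 11.5 and Ddx3y at 2.48 to 4.25, against 2.97 to 4.86 and 8.95 to 9.62 in the other 8 libraries. High Xist with low Ddx3y is the female pattern, so replicate 1 looks female and replicates 2 and 3 male. The labels do not tie a replicate number to a sex, and sex and any batch cannot be told apart here. Results in replicates 2 and 3 alone thus rest on libraries with the male pattern. Results that rest on the difference between replicate 1 and the others are given with and without replicate 1.

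Promoters are shown for 6 genes that the results turn on. Idi1, Msmo1, Cyp51 and Insig1 had the largest changes with time in replicates 2 and 3. Ebp was the gene called in most fits of NASH against control, and Hmgcs1 had the highest level per length. RefSeq promoters on GRCm38.p6, from 250 bases before to 50 bases after the start, were at hand for 24 of the 29 genes, and Sqle, Stard4, Fdft1, Npc1 and Fdps had no entry. Each sequence below reads 5′ to 3′ on the gene's own strand. Capitals mark the CCAAT box in either orientation (CCAAT or ATTGG), the site of the factor NF-Y that works beside SREBP-2, and in Hmgcs1 also 1 match to the sterol element TCACNCCAC.
Hmgcs1, chr13:119690101-119690400, plus strand: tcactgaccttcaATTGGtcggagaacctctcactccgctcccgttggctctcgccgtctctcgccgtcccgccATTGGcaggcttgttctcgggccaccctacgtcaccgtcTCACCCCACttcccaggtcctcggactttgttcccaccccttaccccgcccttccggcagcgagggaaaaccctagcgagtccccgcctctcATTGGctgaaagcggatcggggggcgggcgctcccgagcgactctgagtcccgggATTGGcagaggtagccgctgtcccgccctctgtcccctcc
Idi1, chr13:8885356-8885655, plus strand: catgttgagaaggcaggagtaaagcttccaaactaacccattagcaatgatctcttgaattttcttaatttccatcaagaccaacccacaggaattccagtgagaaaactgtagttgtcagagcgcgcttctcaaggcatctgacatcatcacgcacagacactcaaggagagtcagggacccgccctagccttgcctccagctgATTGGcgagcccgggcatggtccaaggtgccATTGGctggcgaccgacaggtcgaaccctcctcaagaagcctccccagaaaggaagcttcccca
Insig1, chr5:28071162-28071461, plus strand: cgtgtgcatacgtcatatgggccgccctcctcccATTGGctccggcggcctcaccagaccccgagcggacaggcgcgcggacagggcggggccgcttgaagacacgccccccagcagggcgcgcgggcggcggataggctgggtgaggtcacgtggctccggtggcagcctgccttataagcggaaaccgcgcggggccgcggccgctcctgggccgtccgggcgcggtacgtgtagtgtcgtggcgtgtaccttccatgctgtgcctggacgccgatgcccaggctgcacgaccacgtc
Msmo1, chr8:64733529-64733828, minus strand: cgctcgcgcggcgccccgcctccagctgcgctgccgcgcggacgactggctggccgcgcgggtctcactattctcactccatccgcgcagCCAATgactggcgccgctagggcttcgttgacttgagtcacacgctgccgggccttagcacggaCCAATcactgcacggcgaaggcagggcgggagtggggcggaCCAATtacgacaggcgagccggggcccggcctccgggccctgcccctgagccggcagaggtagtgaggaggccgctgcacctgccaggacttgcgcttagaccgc
Cyp51, chr5:4104648-4104947, minus strand: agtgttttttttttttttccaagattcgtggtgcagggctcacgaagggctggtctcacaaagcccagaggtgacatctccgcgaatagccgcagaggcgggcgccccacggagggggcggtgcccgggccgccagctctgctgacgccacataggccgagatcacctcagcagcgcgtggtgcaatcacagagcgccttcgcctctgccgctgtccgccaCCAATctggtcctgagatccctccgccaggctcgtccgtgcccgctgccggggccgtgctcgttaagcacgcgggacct
Ebp, chrX:8193463-8193762, minus strand: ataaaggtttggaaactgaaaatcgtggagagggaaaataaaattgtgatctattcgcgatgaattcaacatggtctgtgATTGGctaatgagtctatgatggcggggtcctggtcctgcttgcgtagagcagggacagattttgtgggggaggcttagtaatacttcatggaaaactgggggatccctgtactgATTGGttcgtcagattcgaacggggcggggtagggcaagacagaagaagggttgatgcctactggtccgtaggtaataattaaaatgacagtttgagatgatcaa

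Both strands of the 24 promoters were searched. The CCAAT box was in 20 of 24 (83.3%), against 37.9% of 27025 promoters, 1 for each gene, and 38.3% of the 9270 promoters of measured genes. The GC box GGGCGG was also in 20 of 24, against 35.9% of all promoters and 64.7% of those of measured genes. The sterol element TCACNCCAC was in 1 of 24, that of Hmgcs1, against 1.22% of all promoters and 1.11% of those of measured genes. These counts describe letters in a 300-base window and say nothing of binding.

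The genes spanned a wide range of levels. As a level per length, Hmgcs1, which makes HMG-CoA, was highest in all 4 groups, at 2039 scaled reads per kb in NASH and 2205 in control at 24 weeks, and 2347 in NASH and 2273 in control at 12 weeks. Soat1, which esterifies cholesterol for storage, was lowest in 3 of the 4 groups, at 48.0 scaled reads per kb in NASH and 50.4 in control at 24 weeks and 56.5 in control at 12 weeks. Ggps1, which makes geranylgeranyl diphosphate for protein prenylation, was lowest in NASH at 12 weeks, at 47.1. Cyp51, which demethylates lanosterol, ranked 2nd in NASH at 12 weeks, at 1195 scaled reads per kb, and 8th in control at 12 weeks, at 437. Between individual libraries the log2 value of a gene moved by 0.39 for Scap, the least, to 3.34 for Cyp51, the most.

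**Figure D1:**
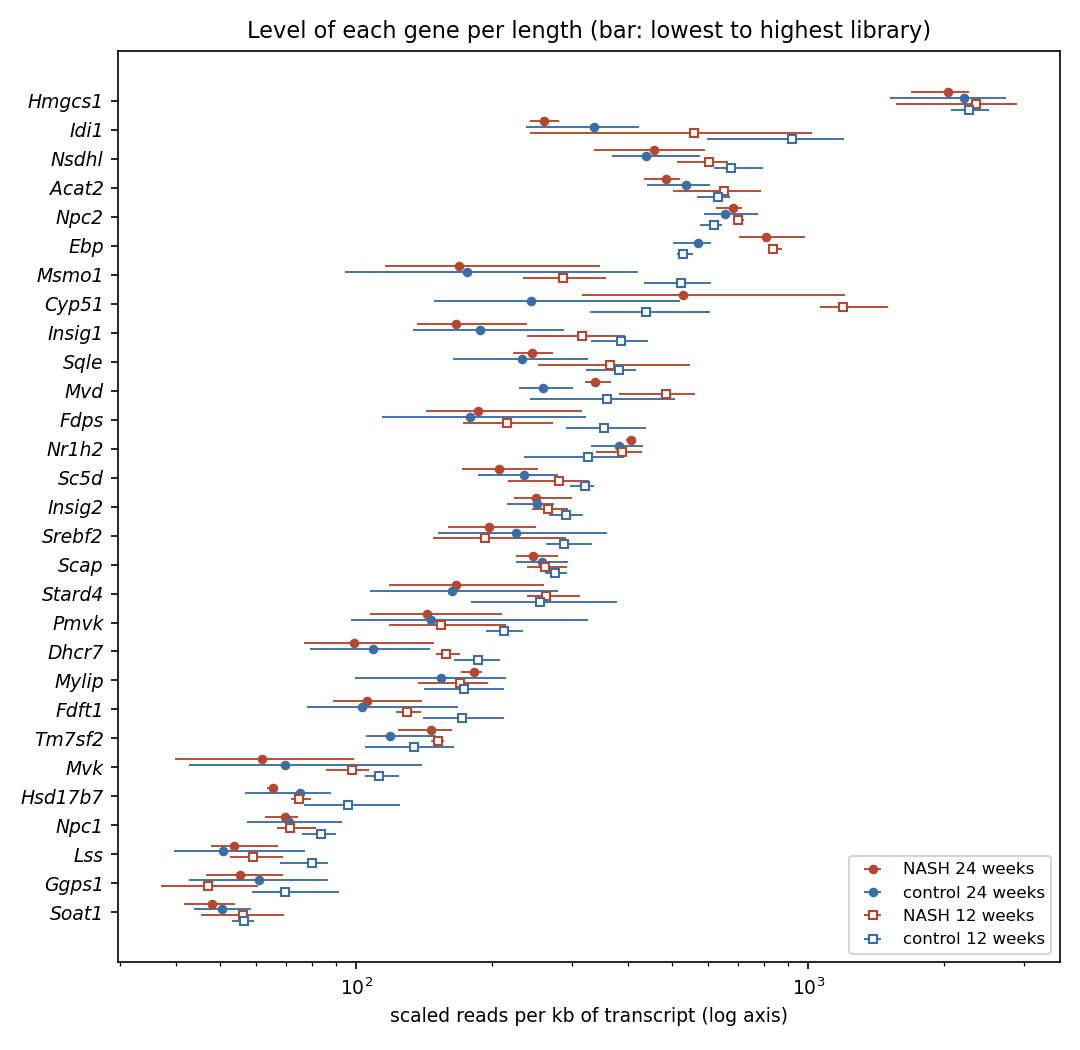
Level of each of the 29 genes per length, in scaled reads per kb of transcript on a log axis, with NASH in red and control in blue, filled symbols for 24 weeks and open squares for 12 weeks. Points are group means of log2 values turned back to a linear scale and bars run from the lowest to the highest of 3 libraries. Hmgcs1 lies above the other genes in all groups, and the bars of most neighbouring genes overlap.

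The main pattern was a lower level of the synthesis genes at 24 weeks than at 12 weeks in replicates 2 and 3 of NASH and of control mice, with nothing called over all 12 libraries. Averaged over NASH and control in replicates 2 and 3, 16 of the 29 genes fell and 0 rose, against 6.05% of all genes lower and 4.51% higher (10.6% in all). Idi1, which isomerises isopentenyl diphosphate, was 3.59-fold lower at 24 weeks (log2 change -1.84, SE 0.15, adjusted p = 9.3e-05). Insig1, which retains Scap when sterol is high and is itself induced by SREBP-2, was 2.50-fold lower (-1.32, SE 0.11, adjusted p = 1.1e-04). Msmo1, an oxidase that removes methyl groups from sterol intermediates, was 3.22-fold lower (-1.69, SE 0.17, adjusted p = 2.8e-04), and Cyp51 3.11-fold lower (-1.64, SE 0.19, adjusted p = 6.3e-04). The median change of the 29 genes was -0.54, against -0.067 over all genes. Averaging over NASH and control was chosen after the data were seen, and Idi1 and Msmo1 were picked for a full account after their values were seen.

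The values by library show the pattern. Idi1 was at log2 9.65, 9.44 and 9.55 in NASH and 10.24, 9.41 and 10.08 in control at 24 weeks (replicates 1, 2 and 3). At 12 weeks it was at 9.44, 10.99 and 11.51 in NASH and at 10.74, 11.74 and 11.61 in control. All 4 libraries of replicates 2 and 3 at 24 weeks lay below all 4 at 12 weeks, whereas replicate 1 of the NASH mice was low at both times.

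Insig1 was at 9.30, 8.54 and 8.50 in NASH and 9.58, 8.47 and 8.83 in control at 24 weeks, and at 9.30, 9.81 and 10.02 in NASH and 10.19, 10.01 and 9.78 in control at 12 weeks. Msmo1 was at 9.31, 7.78 and 7.72 in NASH and 9.58, 7.97 and 7.43 in control at 24 weeks, and at 9.01, 8.74 and 9.34 in NASH and 10.12, 9.95 and 9.63 in control at 12 weeks. Both genes were low in replicates 2 and 3 at 24 weeks, with no overlap with replicates 2 and 3 at 12 weeks, while replicate 1 at 24 weeks stayed within the range of the 12-week libraries for Msmo1.

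Cyp51 was at 12.36, 10.42 and 10.72 in NASH and 11.15, 9.34 and 9.66 in control at 24 weeks. At 12 weeks it was at 12.19, 12.17 and 12.68 in NASH and at 10.84, 11.37 and 10.48 in control. Within NASH and within control, replicates 2 and 3 were lower at 24 weeks, and replicate 1 was above its 12-week value.

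**Figure D2:**
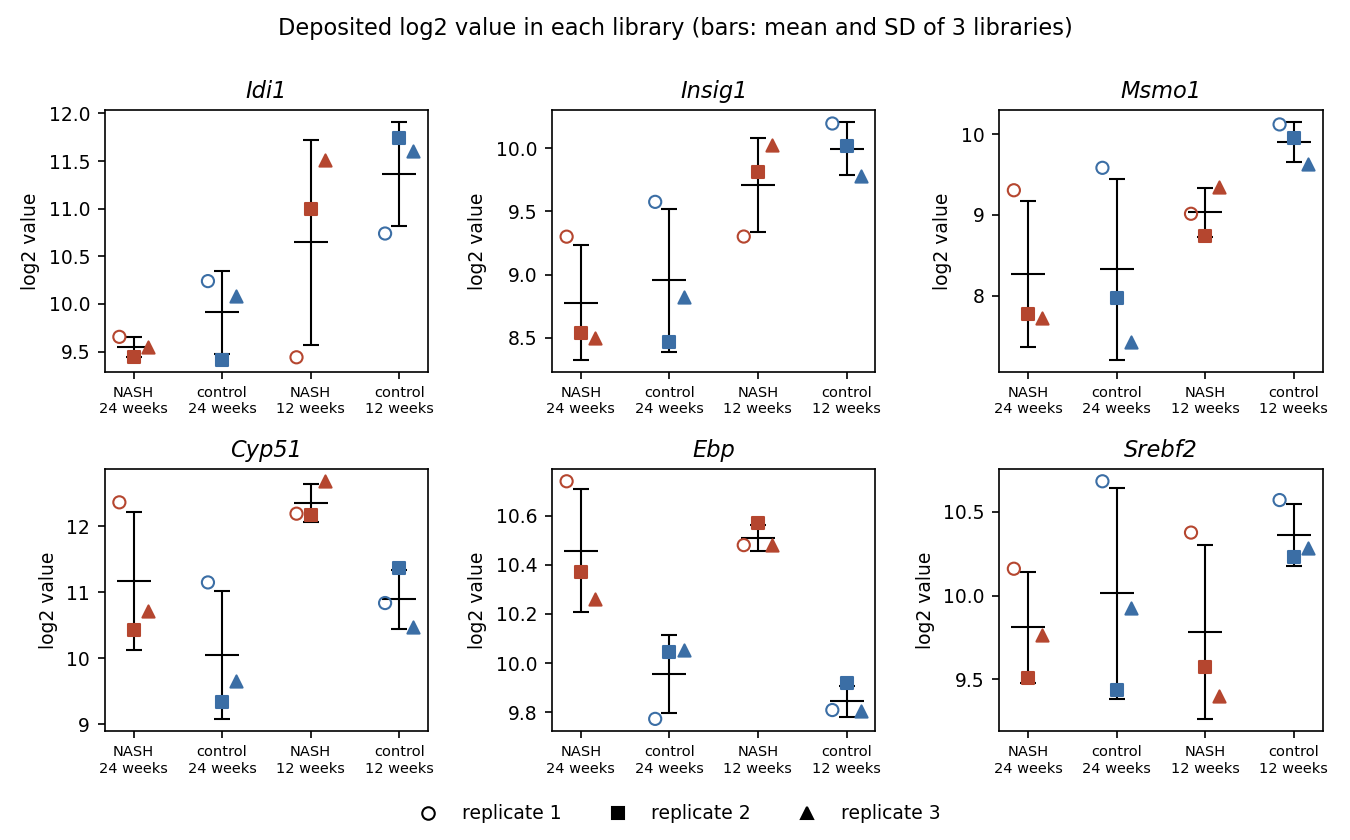
Deposited log2 value of 6 genes in each of the 12 libraries, with the groups NASH 24 weeks, control 24 weeks, NASH 12 weeks and control 12 weeks from left to right, NASH in red and control in blue. Open circles are replicate 1, squares replicate 2, triangles replicate 3, and black bars the mean and SD of 3 libraries. Idi1, Insig1, Msmo1 and Cyp51 are low in replicates 2 and 3 at 24 weeks, and Ebp is higher in NASH than in control at both times.

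By role, 6 of 8 mevalonate and isoprenoid genes fell in replicates 2 and 3: Acat2 (-0.35), which joins acetyl-CoA units, the kinases Mvk (-1.08) and Pmvk (-0.63), the decarboxylase Mvd (-0.70), Idi1, and Fdps (-0.84), which makes farnesyl diphosphate. Hmgcs1 (-0.098, SE 0.075) and Ggps1 (0.0088) did not pass. From squalene on, 8 of 11 fell: the squalene synthase Fdft1 (-0.69), the epoxidase Sqle (-0.86), Lss (-0.54), which closes the ring, Cyp51, Msmo1, Nsdhl (-0.71), Sc5d (-0.66) and Dhcr7 (-1.03), which reduces the last double bond. Tm7sf2, Hsd17b7 and Ebp did not pass. Of the 4 SREBP genes Insig1 fell, and Insig2 (-0.17), Srebf2 (-0.22) and Scap (-0.17) did not pass. Stard4 (-0.81), which moves cholesterol between membranes, was the 1 of 4 transport and storage genes that fell, and Soat1, Npc1 and Npc2 did not pass. Nr1h2, which encodes LXR beta, and Mylip, a ligase that degrades lipoprotein receptors, did not pass.

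In NASH mice alone, replicates 2 and 3 gave 9 of 29 genes lower, against 2.14% of all genes lower and 2.51% higher (4.66% in all). In control mice alone it was 13 of 29, against 4.17% lower and 2.33% higher (6.5% in all). NASH and control share no library here, but the 2 lists of calls are not independent. Both changes come from 1 fit with 1 estimate of the spread per gene, and same-numbered libraries of NASH and control correlate. How many of all genes were called in both is not reported here. The calls had 7 genes in common, Idi1, Cyp51, Insig1, Msmo1, Dhcr7, Stard4 and Nsdhl, which is 77.8% of those called in NASH and 53.8% of those called in control. Acat2 (-0.53) and Sc5d (-0.77) were called in NASH alone, and Mvk (-1.22), Pmvk (-1.11), Mvd (-0.73), Fdps (-1.25), Fdft1 (-0.94) and Lss (-0.89) in control alone. The difference of the changes itself passed for 0 of 29 genes in these replicates with limma, against 0.629% of all genes called. At an unadjusted p under 0.05 there were 9 of 29, against 15.4% of all genes. With 2 libraries a group the counts move with each library. The shares of all genes called in the fits without 1 library are not reported here. In NASH they were 3 without replicate 3 of either time, 4 without replicate 2 at 24 weeks and 6 without replicate 2 at 12 weeks. In control they were 3 without replicate 2 at 12 weeks and 5 without replicate 2 at 24 weeks, and the averaged count stayed between 13 and 16 when each of the 8 libraries was left out.

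Over all 12 libraries none of the 29 genes was called for time by limma, with or without the replicate number as a block. For the averaged change 0 genes of all 11614 were called without the block, and 14 of the 29 had an unadjusted p under 0.05, against 8.67% of all genes. With the block 15 of the 29 had, against 18.4% of all genes. There 0.431% of all genes were called, and the smallest adjusted p among the 29 were 0.0557 for Insig1 (-0.99, SE 0.19) and 0.0601 for Stard4 (-0.65, SE 0.13). In NASH mice alone 5 of the 29 had an unadjusted p under 0.05 without the block and 8 with it, against 4.76% and 11.5% of all genes. In control mice alone 9 and 13 had, against 7.84% and 19.5% of all genes. With the block 0.0258% of all genes were called in NASH and 0.172% in control. The direction was shared by most genes all the same: 25 of 29 were below 0 in NASH, with a median of -0.22 against 0.020 over all genes, and 26 of 29 in control, with a median of -0.45 against -0.081. The 3 libraries of the groups did not overlap for 4 genes in NASH (Mvd, Hsd17b7, Dhcr7 and Insig1), all lower at 24 weeks, against 4.37% of all genes lower and 4.06% higher (8.44% in all). For Insig1 the highest NASH value at 24 weeks, 9.3004, lay barely below the lowest at 12 weeks, 9.3013. For Dhcr7 these values were 8.7116 and 8.7231. In control they did not overlap for 6 (Idi1, Msmo1, Nsdhl, Sc5d, Dhcr7 and Insig1), all lower, against 7.38% lower and 4.72% higher (12.1% in all). Leaving out 1 library of replicate 1 brought calls to the averaged change with the block, 12 without NASH at 12 weeks, 9 without control at 24 weeks, 8 without NASH at 24 weeks and 3 without control at 12 weeks. The shares of all genes called in these fits are not reported here, so the counts do not set the 29 against other genes.

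Replicate 1, with 1 library in each group, had smaller median changes. From 12 to 24 weeks 17 of the 29 genes were lower in NASH, with a median difference of -0.027. In control 18 were lower, with a median of -0.17. Idi1 changed there by 0.21 in NASH and by -0.50 in control, opposite signs that its mean below hides. The change with time was compared between replicate 1 and replicates 2 and 3 in a fit of 8 means, which was added after the data were seen. With 1 library of replicate 1 in a group, the spread comes from replicates 2 and 3 alone, and replicate 1 is assumed to vary like them. For the time change, and for the NASH change given below, the share of all genes at an unadjusted p under 0.05 is not reported here. Idi1 changed by -0.14 in replicate 1 and by -1.84 in replicates 2 and 3, a difference of 1.70 (SE 0.27, adjusted p = 0.0276). Cyp51 changed by 0.24 and by -1.64, a difference of 1.88 (SE 0.33, adjusted p = 0.0421). These were 2 of 29 genes, against 0.491% of all genes, and 13 of 29 had an unadjusted p under 0.05. Msmo1 (difference 1.57, adjusted p = 0.0514) and Insig1 (1.01, adjusted p = 0.0621) did not pass. None of the 29 was called without NASH replicate 3 at 24 weeks, 1 without NASH replicate 3 at 12 weeks or replicate 2 at 24 weeks, and 4 without NASH replicate 2 at 12 weeks.

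**Figure D3:**
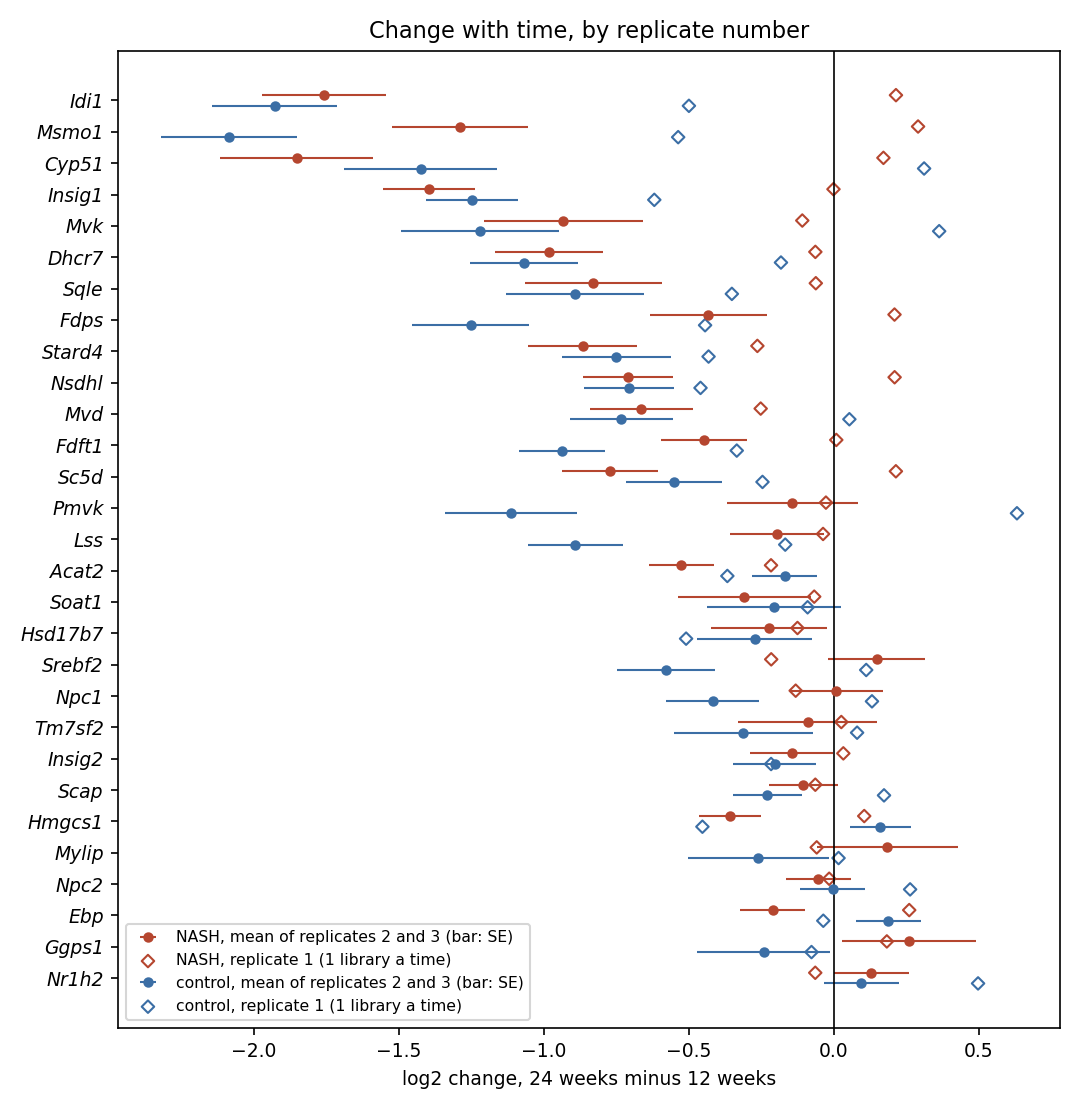
Log2 change from 12 to 24 weeks for each of the 29 genes, ordered by the mean change in replicates 2 and 3, with NASH in red above control in blue. Filled points are the mean of replicates 2 and 3 with its SE, and open diamonds the difference between the single libraries of replicate 1. The filled points of the upper genes lie far below 0, to -2.09 for Msmo1 in control, and the diamonds of Idi1 and Cyp51 lie nearer 0.

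**Figure D4:**
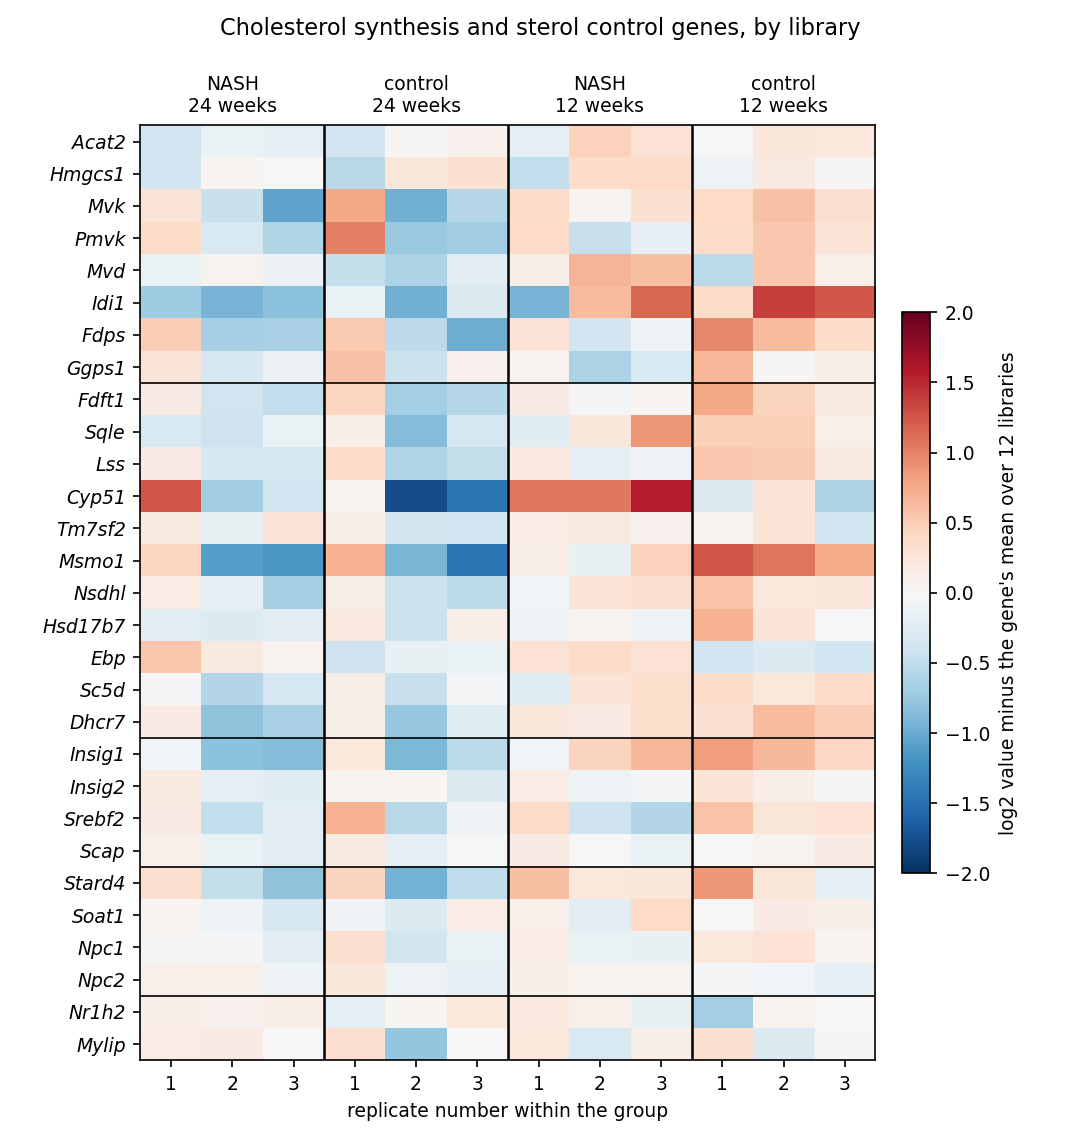
Log2 value of each gene minus its mean over 12 libraries, in columns of replicates 1, 2 and 3 for NASH and control at 24 weeks, then NASH and control at 12 weeks. Rows follow the role of the genes, from the mevalonate steps at the top to the LXR arm at the bottom. Of the 29 genes, 24 had their lowest library at 24 weeks and 21 of these in replicates 2 and 3, with 12 in replicate 2 of the 24-week controls.

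Other measures moved with time in replicates 2 and 3. Of 5 endothelial markers 4 fell at 24 weeks, among them Kdr (-0.92), with a summed level of 1612 to 2205 scaled reads at 24 weeks against 2323 to 4349 at 12 weeks. Of 6 markers of the loop of Henle and distal tubule Calb1 fell (-0.90) and Slc12a3 rose (0.46), with a median of -0.63 and sums of 25204 to 33375 against 26960 to 63738. Of 10 adipocyte markers 4 rose, with sums of 899 to 2760 against 432 to 1149. In control mice 5 adipocyte markers rose, with Adipoq at 5.42, and their sums were 1964 to 2760 against 432 to 627, whereas in NASH mice 0 passed, with sums of 899 to 1803 against 984 to 1149. Over all libraries the adipocyte sum reached 23606 in control mice at 24 weeks, in replicate 1. The 10 proximal tubule markers summed to 292027 to 301040 at 24 weeks and 273985 to 329833 at 12 weeks, with 1 gene higher. Of 6 clock genes, listed because they were known to differ in these data, 1 rose and 1 fell in NASH mice. In control mice 3 rose and 2 fell. Dbp, an output factor of the circadian clock, fell in NASH (-2.47) and rose in control (3.57). Npas2, a partner of Bmal1, rose in NASH (1.71) and fell in control (-1.34). The part of these cells or of the hour in the change of the sterol genes was not tested. Adrenal cortex, a tissue next to the kidney that uses much cholesterol, had 0 of 9 listed markers measured.

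Between NASH and control few of these genes passed, Ebp most often. At 12 weeks 9 of the 29 genes were above 0 and 20 below, with a median of -0.16 against -0.080 over all genes. Without the block 0 of 29 were called by limma, against 0.0517% of all genes. At an unadjusted p under 0.05 there were 2 of 29, against 14.5% of all genes. The block treats same-numbered libraries as pairs, though the labels state no pairing. With it 4 of 29 were called, against 12.9% of all genes (3.01% higher and 9.85% lower), so the share was near the background. Ebp, an isomerase that shifts a double bond in the sterol ring, was higher in NASH by 0.67 on the log2 scale (1.59-fold, SE 0.13, adjusted p = 0.0143). Fdps was 1.64-fold lower (-0.71, SE 0.21, adjusted p = 0.0466), Ggps1 1.47-fold lower (-0.56, SE 0.14, adjusted p = 0.0307) and Srebf2 1.49-fold lower (-0.58, SE 0.16, adjusted p = 0.0425). Cyp51 was 2.73-fold higher and did not pass (1.45, SE 0.44, adjusted p = 0.0522).

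Ebp was at log2 10.48, 10.57 and 10.48 in NASH and 9.81, 9.92 and 9.80 in control at 12 weeks (replicates 1, 2 and 3), and at 10.74, 10.37 and 10.26 in NASH and 9.77, 10.04 and 10.05 in control at 24 weeks. The groups did not overlap at either time, and NASH was higher in 6 of 6 same-numbered pairs. Cyp51, given by library above, was also higher in 6 of 6 pairs, as was Mvd. For Cyp51 the groups did not overlap at 12 weeks. They overlapped at 24 weeks, where replicate 1 of control lay above replicates 2 and 3 of NASH. Of all genes, 16.9% were higher in NASH in all 3 pairs at 12 weeks and 19.3% at 24 weeks. The share of all genes higher in all 6 pairs is not reported here.

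Fdps was at 8.64, 7.97 and 8.29 in NASH and 9.32, 8.99 and 8.73 in control at 12 weeks, without overlap, and at 8.85, 7.70 and 7.70 in NASH and 8.88, 7.84 and 7.38 in control at 24 weeks, where the groups overlap. Ggps1 was at 7.67, 6.96 and 7.29 in NASH and 8.26, 7.63 and 7.71 in control at 12 weeks, and at 7.85, 7.28 and 7.48 in NASH and 8.18, 7.16 and 7.69 in control at 24 weeks. Replicate 1 was the highest library of each group for both genes, and the groups overlap for Ggps1 at both times.

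Srebf2 was at 10.38, 9.57 and 9.40 in NASH and 10.57, 10.23 and 10.29 in control at 12 weeks, and at 10.16, 9.51 and 9.76 in NASH and 10.68, 9.43 and 9.92 in control at 24 weeks. NASH was lower in 5 of 6 same-numbered pairs. The same held for Mvk, Idi1, Fdps, Ggps1, Msmo1, Hsd17b7, Sc5d, Dhcr7 and Npc1. Of all genes, 33.0% were lower in NASH in all 3 pairs at 12 weeks and 14.4% at 24 weeks. Scap was at 10.27, 10.09 and 9.98 in NASH and 10.11, 10.18 and 10.27 in control at 12 weeks, and at 10.21, 9.96 and 9.89 in NASH and 10.28, 9.90 and 10.09 in control at 24 weeks. Insig2, the other Insig protein, was at 9.41, 9.15 and 9.23 in NASH and 9.53, 9.39 and 9.28 in control at 12 weeks, and at 9.44, 9.08 and 9.02 in NASH and 9.31, 9.30 and 8.97 in control at 24 weeks. With the block the NASH changes at 12 weeks were -0.073 (SE 0.11) for Scap, -0.13 (SE 0.11) for Insig2 and -0.28 (SE 0.27) for Insig1, and none of the 3 passed.

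The calls at 12 weeks differed between fits. In replicates 2 and 3 alone 3 of 29 were called, Ebp (0.67, adjusted p = 0.0159), Cyp51 (1.50, adjusted p = 0.0186) and Srebf2 (-0.77, adjusted p = 0.0389), against 3.31% of all genes. With the block, quantile normalization left 1 call, Ebp. Median-of-ratios scaling ended the calls of Fdps and Srebf2 and added a call for Cyp51, and removing the GC and length trend ended that of Ggps1 (-0.41, adjusted p = 0.12). With the block and 1 library left out, the count was 0 without control replicate 3 at 12 weeks, 1 without NASH replicate 1 or 2 at 12 weeks, and 2 without control replicate 2 at 12 weeks or NASH replicate 2 or 3 at 24 weeks. Ebp stayed called in 11 of these 12 fits, Ggps1 in 6, Fdps in 5 and Srebf2 in 4. The libraries of the groups did not overlap for 6 genes, Cyp51, Ebp and Npc2 higher and Fdps, Fdft1 and Msmo1 lower, against 22.5% of all genes (8.14% higher and 14.4% lower). The 6 clock genes were listed because they were known to differ in these data, so their calls are not an independent result. All 6 were called in the same comparison with the block, with Dbp at 5.48 and Npas2 at -2.61. Ttr, a marker of the hepatocyte list, was at 2.77. The hepatocyte list summed to 6958 to 9217 scaled reads in NASH and 4525 to 8430 in control at 12 weeks, with 2 of 9 genes higher and 1 lower. Their part in the sterol genes' values was not tested.

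At 24 weeks 0 of the 29 genes were called between NASH and control by limma without the block, with it, or in replicates 2 and 3 alone, against 0, 0.00861% and 0.103% of all genes. At an unadjusted p under 0.05 there were 1, 2 and 4 of 29, against 2.99%, 9.68% and 9.14% of all genes. The median change was -0.030, against 0.010 over all genes. The smallest p with the block were those of Ebp (0.50, SE 0.13, adjusted p = 0.388) and Cyp51 (1.12, SE 0.44, adjusted p = 0.463). Mvd (0.38) and Ebp were the 2 genes whose libraries did not overlap, both higher, against 4.56% of all genes higher and 2.65% lower (7.22% in all). Limma's test of the difference between the NASH effects at 24 and 12 weeks called 0 of the 29 genes, with 0 at an unadjusted p under 0.05 without the block and 2 with it, Fdps (0.76, SE 0.29) and Lss (0.51, SE 0.23). At that threshold stood 3.66% and 12.8% of all genes, and 0 and 0.00861% were called.

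Averaged over both times, 0 of 29 genes were called by limma without the block, as were 0 of all genes. At an unadjusted p under 0.05 there were 3 of 29, against 13.6% of all genes. With the block 3 of 29 were called, against 10.4% of all genes (3.03% higher and 7.36% lower). Ebp was higher in NASH by 0.58 (SE 0.093, 1.50-fold, adjusted p = 0.0101) and Cyp51 by 1.28 (SE 0.31, 2.44-fold, adjusted p = 0.0301), and Ggps1 was lower (-0.35, SE 0.0997, adjusted p = 0.0493). Ebp was called in 12 of 12 fits with the block that left out 1 library, Cyp51 in 4 and Ggps1 in 1. Without the block, fits that left out 1 library called 0 of the 29. Ggps1 was not called with the block under the other scalings, and removing the GC and length trend ended its call (-0.25, adjusted p = 0.193) and added that of Srebf2 (-0.40, adjusted p = 0.0435). With the block, the count was 1 without control replicate 3 of either time, NASH replicate 2 or 3 at 12 weeks, or NASH replicate 1 or 3 at 24 weeks. In replicates 2 and 3 Ebp (0.47, adjusted p = 0.0284) and Cyp51 (1.29, adjusted p = 0.0110) were called, against 1.06% of all genes. Ebp lies on chromosome X. The NASH change of Ebp was 0.82 in replicate 1 and 0.47 in replicates 2 and 3, a difference of 0.35 that did not pass (SE 0.14, adjusted p = 0.494). Of the 29 genes 0 passed that limma test of replicate 1 against replicates 2 and 3, against 0.319% of all genes, and 5 had an unadjusted p under 0.05.

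**Figure D5:**
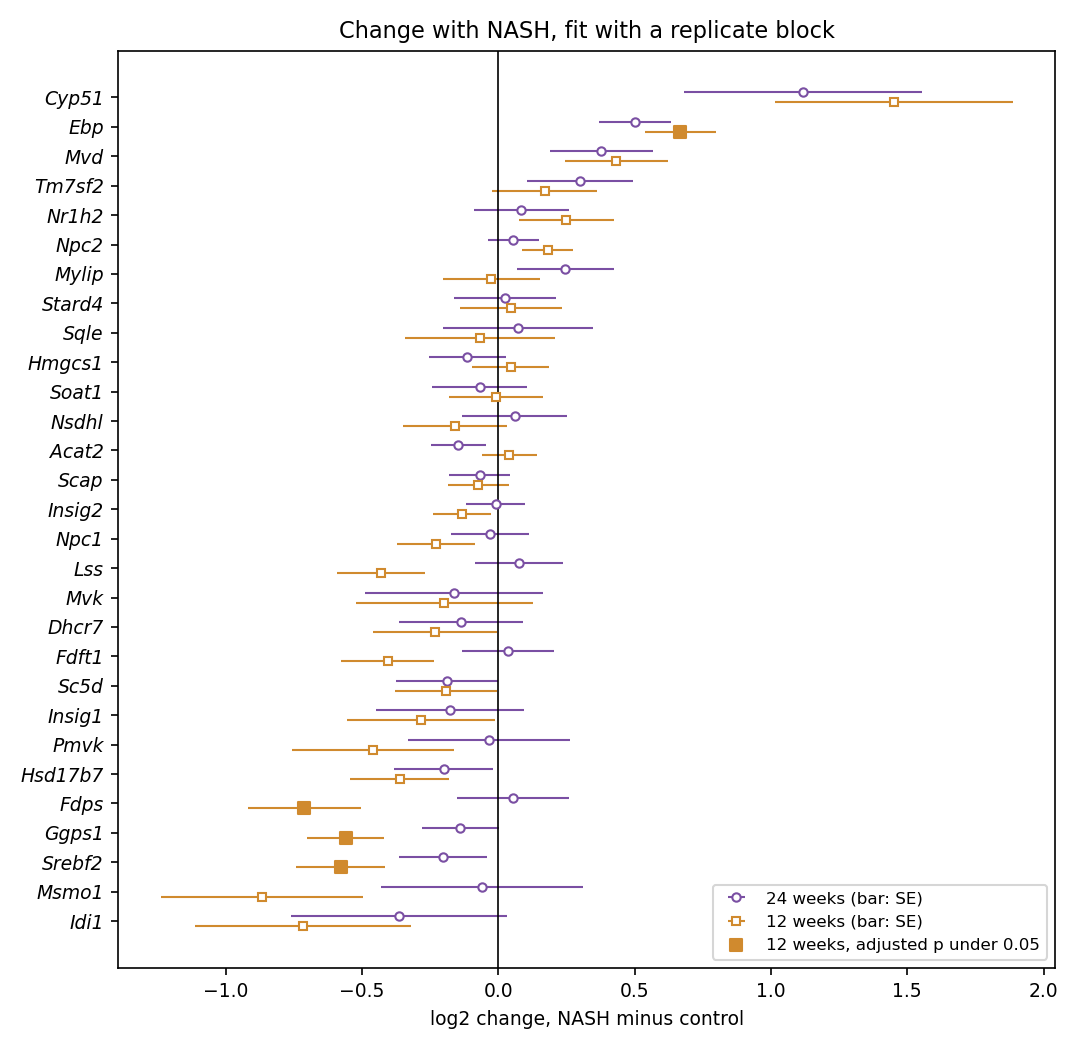
Log2 change between NASH and control for each of the 29 genes with its SE, from the fit with a replicate block, with 24 weeks as purple circles above 12 weeks as orange squares. Filled symbols passed an adjusted p of 0.05. Ebp is the 1 gene filled on the higher side and Fdps, Ggps1 and Srebf2 are filled on the lower side, all at 12 weeks.

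Levels also differed between replicate 1 and the others. In the fit with the block 14 of 29 differed between replicate 1 and the mean of replicates 2 and 3, near the 47.3% of all genes (37.3% higher and 9.98% lower). Higher in replicate 1 were 11, led by Fdps (0.84, SE 0.15), Stard4 (0.84, SE 0.14), Msmo1 (0.94, SE 0.28), Pmvk (0.81) and Srebf2 (0.68, SE 0.12). Lower were Hmgcs1 (-0.57, SE 0.11), Mvd (-0.39) and Acat2 (-0.37). Over all genes the median was 0.20, and it was 0.0043 under median-of-ratios scaling, where 7 of the 29 were higher and 4 lower. Between replicates 2 and 3 limma called 0 genes of all, with 1 of the 29 at an unadjusted p under 0.05.

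Beside the 29, 54 of 58 other listed genes of sterol metabolism were measured. In replicates 2 and 3, averaged over NASH and control, 10 of the 54 were lower at 24 weeks (18.5%, against 6.05% of all genes) and 2 higher (3.7%, against 4.51%). They included Srebf1 (-1.14, SE 0.13), the gene of SREBP-1, Pdss1 (-0.79), which makes the tail of coenzyme Q, the sterol transporter regulator Tmem97 (-0.69), Rnf145 (-0.60), a sterol-responsive ligase that acts on Scap, Lbr (-0.46), a reductase of the sterol ring, and 0610007P14Rik (-0.37). Cyp27a1 (0.30), which makes an oxysterol, was higher. Over all 12 libraries none of the 54 was called for time by limma. With the block 5 of the 54 were lower in NASH at 12 weeks, a share of 9.26% that is near the 9.85% of all genes, and 0 were called without it. Those named by rule were Faf2 (-0.53), Rnf145 (-0.59), Erlin1 (-0.42) and Fnta (-0.39). Averaged over both times with the block Acly, which makes cytosolic acetyl-CoA, was lower in NASH (-0.55, SE 0.082). In that fit 2 of the 54 were lower and 1 higher (3.7% and 1.85%, against 7.36% and 3.03% of all genes). At 24 weeks 0 were called in the 12-library fits.

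On mm10, Idi1 (gene ID 319554) lies on chromosome 13 from 8885606 to 8892396, Insig1 (231070) on chromosome 5 from 28071412 to 28078662, and Msmo1 (66234) on chromosome 8 from 64718145 to 64733578. Cyp51 (13121) lies on chromosome 5 from 4080674 to 4104697, Ebp (13595) on chromosome X from 8185329 to 8193512, and Srebf2 (20788) on chromosome 15 from 82147269 to 82204960. In the GENCODE vM21 annotation 18.3% of the exon bases of Fdft1 overlap the opposite-strand gene Ctsb, 5.44% of Ggps1 Arid4b, 3.76% of Cyp51 Akap9, and 13.2% of Scap, 12.1% of Hmgcs1, 9.22% of Idi1, 3.53% of Lss and 4.52% of Npc1 other opposite-strand genes. On their own strand Fdps shares 26.7% with a predicted gene and Tm7sf2 12.1% with Vps51. Whether reads were counted by strand is not given in the sources used here, so values of these genes may hold reads of the neighbour. Nr1h2 has an annotated pseudogene, Nr1h2-ps, and its value is uncertain for that reason.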

How the data were processed

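RNA-seq of kidney cortex was deposited as 1 table a library. The authors' deposited values are log2 of a normalized read number per gene. BWA, limma and mouse build mm10 are named per the submitters' processing notes, without versions, and the scaling is not given in the sources used here. Below 60 steps, 86 to 91% of values were whole multiples of 1 step (what 1 read is worth in that library) within 0.01 steps, from which depth was estimated. "Scaled reads" are 2 to the power of the deposited value. Groups came from the labels.

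Group means over 12 libraries were fitted with limma 3.58.1 (R 4.3.3) with a mean-variance trend, 4 means and no block, and p-values were adjusted by Benjamini-Hochberg over all 11614 genes. The script was tested on simulated data. Each fit was repeated with the replicate number as a block, in replicates 2 and 3 alone, with other scalings and without each library. Deviations of the 18 same-numbered pairs correlated at 0.187 to 0.742, all above 0.1, so the numbers were treated as pairs. The pairing comes from the data and its meaning is not stated. Replicates 2 and 3 also correlated with each other, at 0.187 to 0.637. The correlations thus set replicate 1 apart but do not show that numbers 2 and 3 mark pairs. Figures were drawn with matplotlib 3.10.9 under Python 3.11.15.

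The genes and lists were chosen with earlier results of these data known. Genes named in full were those called in any of 6 contrasts with or without the block, plus Srebf2, Scap, Insig1 and Insig2, and any other was picked after its values were seen. Other pathway genes were named where called, but some listed genes are counted and not reported here by name. Start coordinates were raised by 1.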

Additional observations from a re-analysis of the deposited data

Results flagged for a closer look

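For Idi1 and Cyp51 the change from 12 to 24 weeks passed a limma test of the difference between replicate 1 and replicates 2 and 3, in a fit added after the data were seen. For Idi1 the difference was 1.70 on the log2 scale (SE 0.27, adjusted p = 0.0276), with changes of -0.14 in replicate 1 and -1.84 in replicates 2 and 3. For Cyp51 it was 1.88 (SE 0.33, adjusted p = 0.0421), with changes of 0.24 and -1.64. The -0.14 of Idi1 averages changes of opposite sign, 0.21 in NASH and -0.50 in control. Replicate 1 has 1 library in each group, so the spread comes from replicates 2 and 3 alone. Replicate 1 is assumed to vary like them. Of the 29 genes 0 were called without NASH replicate 3 at 24 weeks, 1 without NASH replicate 3 at 12 weeks or replicate 2 at 24 weeks, and 4 without NASH replicate 2 at 12 weeks. What the number stands for is not given in the labels, and the cause was not tested.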

How the results depend on the processing

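Over all 12 libraries and without the block 0 of the 29 genes were called by limma in any contrast of groups, also when 1 library was left out. For NASH against control at 12 weeks, the replicate block gave 4, the block with the GC and length trend removed 3, replicates 2 and 3 alone 3, the block with quantile normalization 1 and with median-of-ratios scaling 3. Leaving out 1 library with the block gave 0 to 5. For the average over both times the same fits gave 3, 3, 2, 3 and 3, not of the same genes (Srebf2 in place of Ggps1 with the GC and length trend removed), and leaving out 1 library 0 to 3, of which 1 to 3 with the block. At 24 weeks, and for the difference of the NASH effects, every fit gave 0. For 24 against 12 weeks in replicates 2 and 3, the plain fit, quantile normalization, median-of-ratios scaling, GC and length removal and the replicate block gave 9, 9, 9, 10 and 9 in NASH, 13, 11, 10, 13 and 14 in control, and 16, 16, 15, 17 and 16 averaged. Leaving out 1 of those libraries gave 3 to 10 in NASH, 3 to 13 in control and 13 to 16 averaged. With the block over the other 11 libraries it gave 0 to 4, 0 to 6 and 0 to 12, with 8 for the average without NASH replicate 1 at 24 weeks. The test of the time change in replicate 1 against replicates 2 and 3 gave 2 in the plain fit, 3 under each of quantile normalization, median-of-ratios scaling and GC and length removal, and 0 to 4 without 1 library. The block changed no other call in the 12-library fits. For the fits without 1 library the shares of all genes called are not reported here.

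Among 2158 single-gene values under alternatives 1872 kept their direction and side of the threshold, 190 passed it newly and 7 fell below it. The sign changed in 89, of which 86 were not called and moved by at most 1 SE and 3 moved by more. Insig1 at 12 weeks was 0.14 with the block without NASH replicate 1 at 12 weeks, in a range of -0.54 to 0.14 over the libraries left out. At 24 weeks without the block, Insig1 ranged from -0.44 to 0.13 and Srebf2 from -0.49 to 0.13, both above 0 without control replicate 1 of that time. The cause was not tested. Alternatives that join the block or replicates 2 and 3 with a scaling, and the averaged time contrast, were added after the data were seen. With 2 or 3 libraries a group, and a single library in replicate 1, small differences cannot be resolved, and counts in replicates 2 and 3 rest on 2 libraries a group.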
